A study of Mus musculus with 20 samples.

Results

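The Naip genes encode the receptors of an inflammasome, a protein complex that starts a lytic form of cell death called pyroptosis. Each NAIP protein binds a bacterial ligand in the cytosol and then recruits the adaptor NLRC4, which activates caspase-1. Caspase-1 in turn cleaves gasdermin D, which forms pores in the plasma membrane, and matures the cytokines IL-1β and IL-18. NAIP1 is known to bind the needle protein of type III secretion systems and NAIP2 their inner rod protein, whereas NAIP5 and NAIP6 bind flagellin. The receptors are best known from macrophages and intestinal epithelium, and their aminoterminal BIR domains place them in the family of inhibitor of apoptosis proteins.

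All genes with a symbol beginning with Naip were taken, singly and as a sum, from RNA-seq counts of mouse liver cancer cells. They were selected on their levels in these libraries, which separate the Trim33-KO lines, so that every comparison with a KO library of the Myc experiment is given as a description without a test. The Myc experiment holds 4 such genes among 13107, namely Naip1, Naip2, Naip5 and Naip6, with Entrez identifiers 17940, 17948, 17951 and 17952. The HU experiment holds 3 among 11210, and Naip5 was not analysed there. Over both experiments these are 4 of 13156 genes.

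The cells were p19/Nras cells, a line from a liver tumor that Nras drove in mice without p19/Arf, and all groups share both lesions. In the Myc experiment the genotype was either sgCtrl (Trim33-WT) or sgTrim33 (Trim33-KO1 and Trim33-KO2), the guide RNAs by which CRISPR was directed to no target or to Trim33. Each genotype carried the pWZL vector alone (Ctrl) or a Myc vector, without further treatment, and each of the 6 groups has 2 libraries. In the HU experiment Trim33-WT (sgCtrl) and Trim33-KO cells received vehicle, called untreated here, or 1 mM HU (hydroxyurea, an inhibitor of ribonucleotide reductase) for 4 hours, again with 2 libraries in each of 4 groups. It is not stated whether the KO cells of the HU experiment were 1 of the lines of the Myc experiment, whether a line is a clone, or whether replicates came from separate cultures. The p-values therefore measure the spread between these libraries, which may be technical. Levels are given as CPM, the count of a gene relative to the total of its library. The libraries of the Myc experiment held 14753177 to 17949430 counts, those of the HU experiment 2315327 to 3082202.

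Trim33 mRNA was examined in every library as a check of the labels. With the Ctrl vector it stood at 235.6 and 247.3 CPM in WT, 122.3 and 130.3 CPM in KO1 and 203.9 and 210.0 CPM in KO2. In the libraries labelled WT Myc it stood at 132.3 and 157.6 CPM, in those labelled KO1 Myc at 186.1 and 195.3 CPM, and in those labelled KO2 Myc at 124.9 and 125.7 CPM. Myc mRNA stood at 415.2 and 420.5 CPM in WT Ctrl and at 461.2 and 466.3 CPM in the libraries labelled WT Myc. In KO1 it stood at 184.7 and 196.3 CPM with Ctrl and at 623.6 and 654.9 CPM with Myc, and in KO2 at 213.4 and 221.9 CPM and at 462.4 and 503.0 CPM. For Trim33, the order of the lines was opposite under the vectors, and the libraries labelled KO1 Myc held more Trim33 mRNA than those labelled WT Myc. These Trim33 levels go against the labels of the Myc vector libraries, those labelled WT Myc included, and the reason was not tested. Whether the names of the lines hold under each vector was not tested either. KO1 and KO2 are therefore names as labelled, with the Ctrl vector too. Guide RNA cuts need not lower the mRNA, so that a level near that of WT does not by itself contradict a knockout. In the HU experiment Trim33 mRNA ranged from 43.0 to 51.5 CPM in KO and from 127.3 to 145.0 CPM in WT libraries.

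The labelled tissue is liver and the labelled cell type HCC. Of 12 hepatocyte markers, Afp and Cebpa were measured in the Myc experiment, with medians of 5.91 and 5.26 CPM over its libraries, and the keratins Krt8 and Krt18 had medians of 1655 and 1481 CPM. Of 18 myeloid markers only Cd14 and Cd68 were measured, and no gene of the lists for endothelial cells and lymphocytes was. As in any bulk sample, fewer cells that express a gene and less RNA per cell cannot be told apart.

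The Naip genes lie in 1 cluster of 302.3 kb on the minus strand of chromosome 13 (mm9). In the order of the coordinates, Naip2 spans chr13:100914018-100972047, Naip5 chr13:100981694-101016278, Naip6 chr13:101051076-101087629 and Naip1 chr13:101177725-101216361, with the pseudogene Naip3 at chr13:101109440-101148915. The coding sequences of the 4 genes were from 89.5% identical, between Naip2 and Naip6, to 97.0% identical, between Naip5 and Naip6. Stretches of 50 bases that another Naip transcript also holds made up 22.6% of the longest coding transcript of Naip1, 18.4% of that of Naip2, 32.3% of that of Naip5 and 20.8% of that of Naip6. Over 100 bases these shares were 7.20%, 4.45%, 10.9% and 6.24%. Reads from these stretches cannot be assigned to 1 gene, and how the counting treated them is not given in the sources used here, so that the single genes are uncertain. The sum does not depend on how such reads were divided among the 4 genes, but it would on whether they were discarded or given to Naip3, which was not tested.

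The 250 bases before the start site of each of the 4 genes are shown, without a test of their part in the levels. They were read from RefSeq (GRCm38.p6), each was found once on chromosome 13 of mm9, and the mm9 coordinates are given. The capitals mark the longest run that the windows of Naip1, Naip2 and Naip5 share.
Naip1, chr13:101222820-101223069, minus strand: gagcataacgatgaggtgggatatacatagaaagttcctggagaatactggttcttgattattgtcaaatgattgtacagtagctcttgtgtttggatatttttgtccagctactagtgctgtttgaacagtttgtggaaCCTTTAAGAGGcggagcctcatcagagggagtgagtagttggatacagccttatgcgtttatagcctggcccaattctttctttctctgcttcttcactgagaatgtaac
Naip2, chr13:100972078-100972327, minus strand: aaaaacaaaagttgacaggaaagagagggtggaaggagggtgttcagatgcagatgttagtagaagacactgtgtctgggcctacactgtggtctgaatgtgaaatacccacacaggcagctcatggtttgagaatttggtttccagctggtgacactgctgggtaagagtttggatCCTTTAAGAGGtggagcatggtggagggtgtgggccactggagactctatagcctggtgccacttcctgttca
Naip5, chr13:101017292-101017541, minus strand: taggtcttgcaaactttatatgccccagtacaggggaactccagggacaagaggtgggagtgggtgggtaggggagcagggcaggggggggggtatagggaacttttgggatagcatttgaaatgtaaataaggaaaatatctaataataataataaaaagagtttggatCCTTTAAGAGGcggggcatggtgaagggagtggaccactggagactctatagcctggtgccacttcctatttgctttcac
Naip6, chr13:101086572-101086821, minus strand: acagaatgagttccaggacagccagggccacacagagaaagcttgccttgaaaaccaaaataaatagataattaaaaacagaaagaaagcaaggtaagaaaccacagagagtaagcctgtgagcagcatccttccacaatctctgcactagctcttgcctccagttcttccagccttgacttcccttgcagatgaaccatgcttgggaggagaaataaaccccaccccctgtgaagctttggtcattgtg

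The shared run of 11 bases, CCTTTAAGAGG, begins 110 bases before the start site of Naip1, 73 before that of Naip2 and 80 before that of Naip5. On either strand it is held by the windows of 29 of 27025 genes (0.107%), Naip1, Naip2 and Naip5 among them, and it is not in the window of Naip6. It was picked as the longest run that the windows of Naip1, Naip2 and Naip5 share, so that its share over all genes is not a test. Naip6 was low in the same libraries, and a role of the run in the Naip levels was not tested. The windows of Naip2 and Naip5 also share a run of 34 bases, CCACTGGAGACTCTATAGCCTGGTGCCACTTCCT. Of 9 motifs searched on both strands, TTTGAA and TATAAA were each found in the windows of Naip1 and Naip5, against 18.3% and 14.3% of all windows, and CCAAT in that of Naip1, against 37.5%. The windows of the 4 genes did not hold CACGTG (6.86% of all windows), TTTGGCGC (0.485%), TTTCGCGC (0.300%), GAAANNGAA (8.18%), GAGGAAGT (2.79%) or GGGACTTTC (0.337%). None of these motifs contains another. The window of Naip6 lies within the span that mm9 gives for that gene, since RefSeq places its start further in. Those of Naip1 and Naip5 do not lie directly before the mm9 spans. They begin at 101222820 and 101017292, whereas the mm9 spans end at 101216361 and 101016278.

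With the Ctrl vector, the Naip genes were well expressed in the cells labelled WT and KO2 and close to 0 in those labelled KO1. Summed over the 4 genes, the WT libraries had 81.9 and 86.8 CPM, the KO2 libraries 65.0 and 64.4 CPM and the KO1 libraries 3.83 and 3.87 CPM. The sum was thus 21.9-fold lower in KO1 than in WT (95% exact counting interval 18.2 to 26.6) and 1.31-fold lower in KO2 than in WT (1.23 to 1.39). Between the lines it was 16.8-fold higher in KO2 than in KO1 (13.9 to 20.4), a fitted log2 fold change of 4.04 (SE 0.142). These intervals cover counting error only, and of all genes 52.2% were called in the comparison of KO1 with WT, 49.9% in that of KO2 with WT and 18.3% in that of KO2 with KO1. The comparisons with WT share the WT Ctrl libraries.

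**Figure D1:**
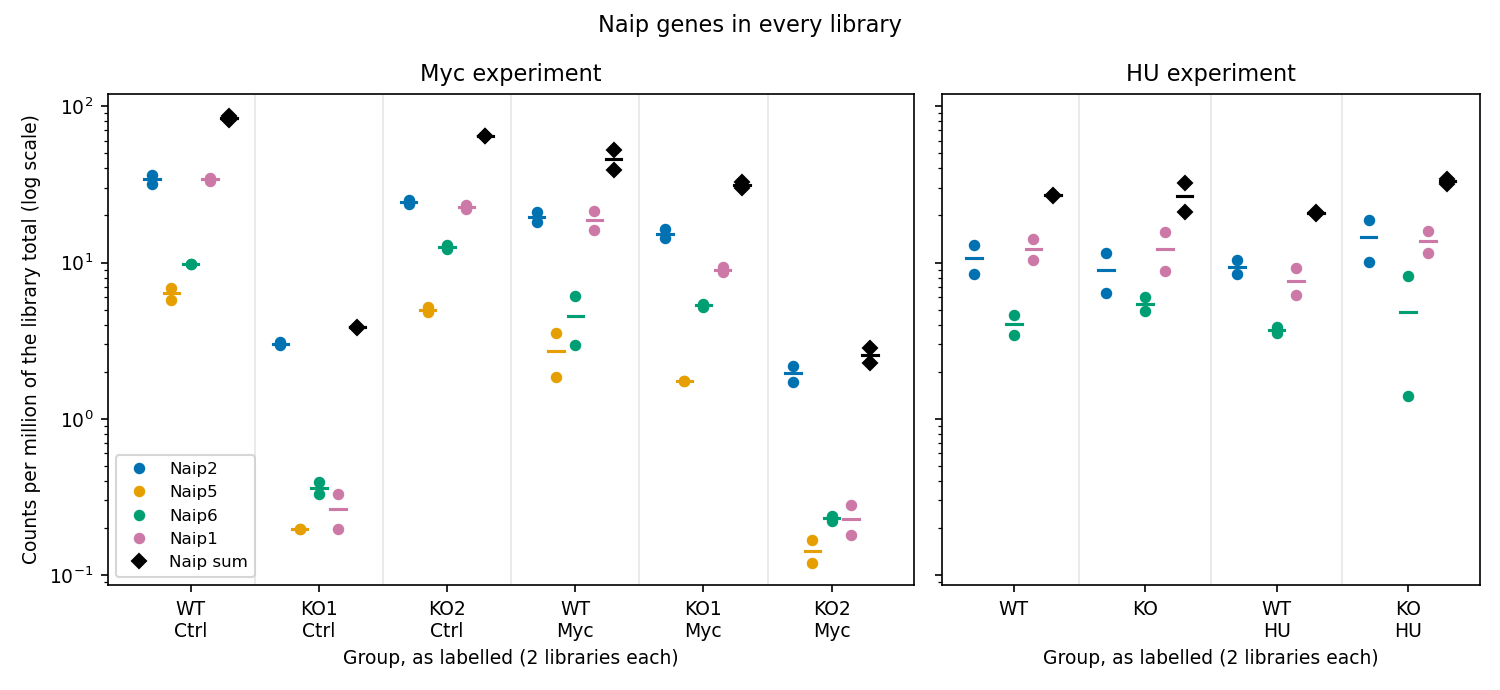
CPM (log scale) for each Naip gene and their sum, by labelled group. Points are libraries, 2 per group, and short lines are group means. The KO1 Ctrl libraries and those labelled KO2 Myc lie far below the others, with sums from 2.27 to 3.87 CPM against 30.2 to 86.8 CPM in the other 8 libraries of the Myc experiment.

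Naip1, the needle receptor, had the largest ratio between KO1 and WT, though the order of the members was not tested. It had 33.4 and 34.9 CPM in the WT Ctrl libraries, 21.9 and 23.5 CPM in KO2 Ctrl and 0.330 and 0.197 CPM in KO1 Ctrl, where these levels stand for 5 and 3 counts. In KO1 it was 129.8-fold lower than in WT (65.6 to 301.5), with an interval that overlapped that of Naip5 (14.5 to 88.4). In KO2 it was 1.51-fold lower than in WT (1.37 to 1.66), and the libraries of the 3 groups did not overlap.

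Naip2, the rod receptor, kept the most counts in KO1 cells. It had 31.8 and 36.3 CPM in WT Ctrl, 25.1 and 23.9 CPM in KO2 Ctrl and 2.97 and 3.09 CPM in KO1 Ctrl, or 45 and 47 counts. The level in KO1 was 11.3-fold lower than in WT (9.10 to 14.1), a smaller ratio than that of Naip1. The difference between these members was not tested.

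The flagellin receptors were expressed at lower levels. Naip5 had 6.91 and 5.76 CPM in WT Ctrl, 5.17 and 4.82 CPM in KO2 Ctrl and 3 counts in each KO1 Ctrl library, which puts it 32.1-fold lower in KO1 than in WT (14.5 to 88.4). Naip6 had 9.83 and 9.82 CPM in WT Ctrl, 12.9 and 12.3 CPM in KO2 Ctrl and 0.330 and 0.394 CPM in KO1 Ctrl, which is 27.1-fold lower than in WT (14.95 to 54.97). Naip6 was the member with a higher level in KO2 than in WT, by 1.28-fold (1.096 to 1.495), while Naip1, Naip2 and Naip5 were lower there. That interval covers counting error only, and the fitted log2 interval of Naip6, -0.09 to 0.64, spans both signs.

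Per length, the order of the levels in WT Ctrl cells was Naip2, Naip1, Naip6 and Naip5. Per kilobase of the longest coding transcript, their levels were 7.06 CPM ± 0.668 (SD, n = 2), 6.38 ± 0.197, 1.44 ± 0.000481 and 1.22 ± 0.156. The step from Naip1 to Naip6 is larger than any of these SDs, whereas Naip2 and Naip1 differ by about the SD of Naip2. In KO1 Ctrl cells Naip2 had 0.628 CPM per kilobase ± 0.0174 and the other 3 genes from 0.0379 to 0.0530 CPM per kilobase.

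The make-up of the Naip counts differed with their amount. Naip2 gave 40.4% of them in WT Ctrl (95% exact binomial interval 38.5 to 42.3) and 37.8% in KO2 Ctrl (35.6 to 40.0) but 78.6% in KO1 Ctrl (70.1 to 85.7), where only 117 counts remained in both libraries together. Naip1 gave 40.5% of the counts in WT Ctrl (38.6 to 42.4) and 6.84% in KO1 Ctrl (2.998 to 13.03). The libraries labelled KO2 Myc had a similar make-up on 89 counts, with 76.4% from Naip2 (66.2 to 84.8) and 8.99% from Naip1 (3.96 to 16.9). Since the copies share stretches of sequence, part of these shares may belong to another copy.

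**Figure D2:**
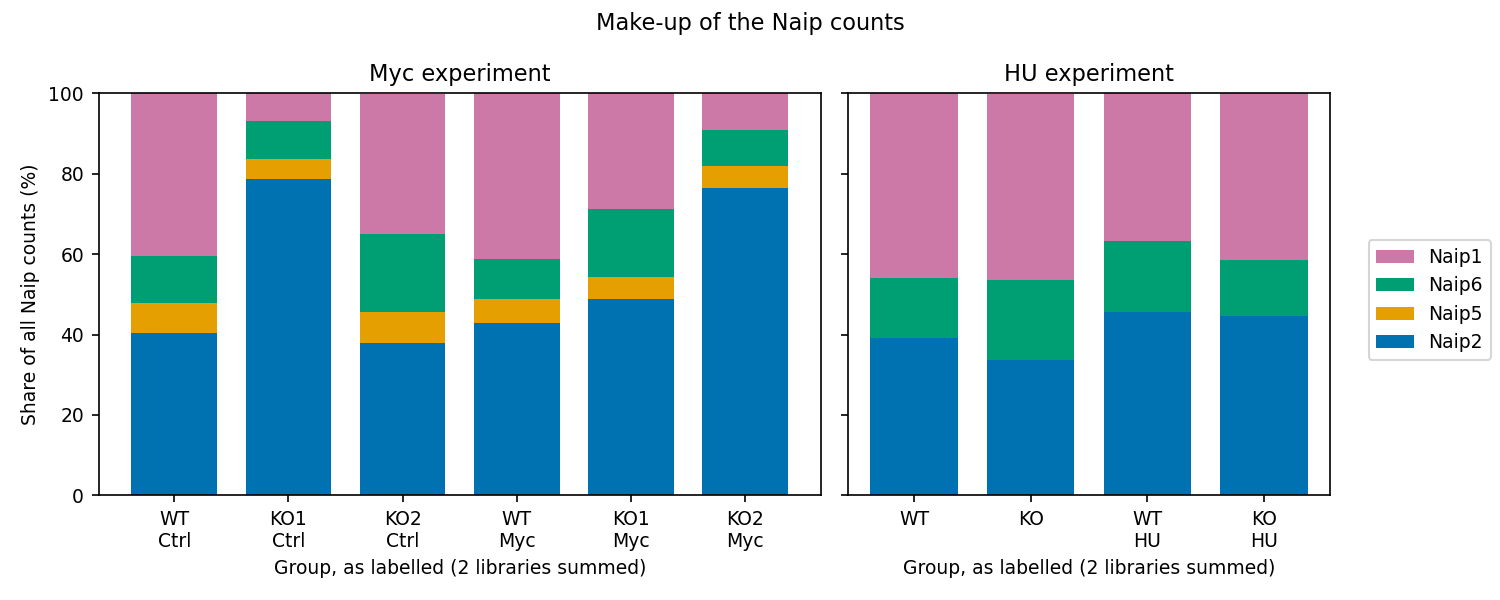
Share of all Naip counts (%) that each gene gave, with the 2 libraries of a group summed. Naip2 made up 78.6% in KO1 Ctrl and 76.4% in the libraries labelled KO2 Myc, against 37.8% to 48.7% in the other groups of the Myc experiment.

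With the Myc vector, the order of the lines was opposite. The Naip sum was 39.3 and 52.1 CPM in the libraries labelled WT Myc, 30.2 and 32.6 CPM in those labelled KO1 Myc and 2.27 and 2.84 CPM in those labelled KO2 Myc. It was thus 12.2-fold lower in the libraries labelled KO2 Myc than in those labelled KO1 Myc (9.84 to 15.4), and 17.9-fold lower than in those labelled WT Myc (14.5 to 22.5). Of all genes, 18.5% were called between the libraries labelled KO2 Myc and KO1 Myc, 35.2% between KO2 Myc and WT Myc and 25.1% between KO1 Myc and WT Myc.

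Each member followed the sum. In the libraries labelled KO2 Myc, Naip1 had 3 and 5 counts against 149 in each of those labelled KO1 Myc, a ratio of 39.1-fold (19.6 to 91.3). Naip2 had 29 and 39 counts against 245 and 261, a ratio of 7.80-fold (6.05 to 10.2). Naip5 had 2 and 3 counts against 30 and 28, and Naip6 had 4 and 4 against 93 and 83, with ratios of 12.2-fold (4.92 to 38.9) and 23.1-fold (11.5 to 54.3). For every member, the libraries labelled KO2 Myc lay below all libraries labelled KO1 Myc or WT Myc. Between KO1 Myc and WT Myc the sum was 1.47-fold lower in the former (1.35 to 1.59), but Naip6 was at 5.43 and 5.20 CPM in KO1 Myc, between the WT Myc libraries at 2.96 and 6.09 CPM.

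By the labels, the Naip sum was therefore 8.15-fold higher with the Myc vector than with Ctrl in KO1 (6.72 to 9.95) and 25.2-fold lower in KO2 (20.4 to 31.6). Of all genes 36.1% were called in the first of these comparisons and 38.8% in the second. Trim33 mRNA, given above, moved with the Naip sum in these libraries: the 4 libraries with the lowest Naip sums were also those with the lowest Trim33 levels, from 122.3 to 130.3 CPM, although a library labelled WT Myc followed at 132.3 CPM.

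Genes other than Naip were set side by side in the same way. Of 205 genes with a mean of at least 1 CPM that were called between KO2 and KO1 with the Ctrl vector at an absolute log2 fold change of at least 2, 203 (99.0%) had the opposite sign between the libraries labelled KO2 Myc and KO1 Myc. Of these genes 186 were called in the second comparison, 186 of them with the opposite sign. With an absolute log2 fold change of at least 1 in the first comparison, 521 of 535 genes (97.4%) had the opposite sign. No library is in both comparisons. An exchange of the labels of lines KO1 and KO2 under one of the vectors was not tested, so that no direction between the lines, and no effect of the Myc vector within a KO line, is read from the Naip values here.

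**Figure D3:**
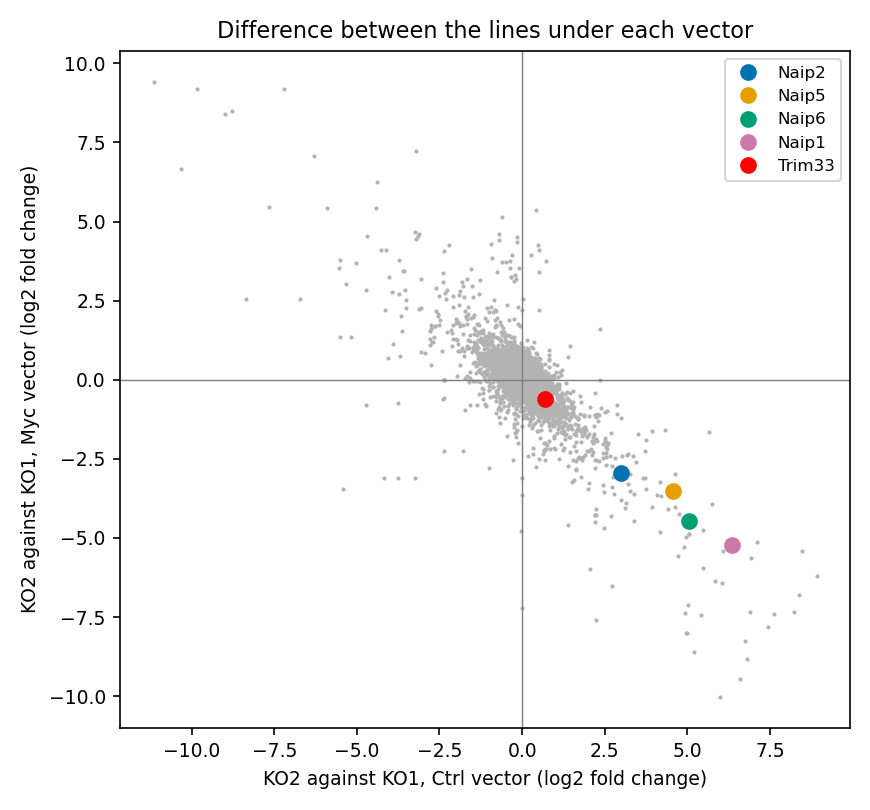
The log2 fold change of KO2 against KO1 with the Ctrl vector (horizontal) and between the libraries so labelled with the Myc vector (vertical), for genes with a mean of at least 1 CPM. Grey points are all such genes, and Trim33 and the Naip genes are coloured. The Naip genes lie at the lower right, from 2.98 to 6.36 on the horizontal and from -2.96 to -5.24 on the vertical axis.

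The comparison of the Myc with the Ctrl vector in WT cells, as labelled, does not involve a library labelled KO and was tested. The Naip sum fell by 0.96 on the log2 scale (SE 0.0955, edgeR adjusted p = 4.46e-07), from 81.9 and 86.8 CPM to 39.3 and 52.1 CPM, and the groups did not overlap. All 4 members fell in this fit, against 22.7% of all genes called lower and 44.3% called in either direction. Naip1 fell by 0.94 (SE 0.107, adjusted p = 2.04e-06) and Naip2 by 0.87 (SE 0.0999, adjusted p = 2.20e-06). Naip5 fell by 1.29 (SE 0.220, adjusted p = 0.000112) and Naip6 by 1.18 (SE 0.202, adjusted p = 0.000116). The libraries labelled WT Myc differed from each other by more than those of other groups, with 45 and 101 counts for Naip6 and 28 and 59 for Naip5. Without the first of them the sum fell by 0.78, and without the second it fell by 1.18. Naip5 fell by 0.92 and 1.85 and Naip6 by 0.78 and 1.81 without the first and the second, all past the threshold. All 5 measured epithelial markers (Krt19, Sox9, Krt8, Krt18 and Spp1) fell in this comparison too, and their summed level was 6259 to 6453 CPM in WT Ctrl and 4157 to 4737 CPM in the libraries labelled WT Myc. The latter also held less Trim33 mRNA than WT Ctrl, with Myc mRNA at the levels given above, and the part of these in the result was not tested.

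Some markers of other cell types differed in the same groups as the Naip sum, in the same or the opposite direction, and others did not. Of 10 mesenchymal markers 7 were measured, and their summed level ranged from 4173 to 4247 CPM in KO1 Ctrl and from 3824 to 3861 CPM in the libraries labelled KO2 Myc, against 2797 to 3402 CPM in the other groups. Most of this sum is vimentin. Col3a1, Col1a1, Pdgfrb and Acta2, for collagen chains, a growth factor receptor and smooth muscle actin, and Vim itself rose in KO1 against WT with the Ctrl vector. These are 5 of the 7, against 52.2% of all genes called, and Pdgfra and Col1a2 were not called there. Between KO2 and WT with the Ctrl vector Col3a1 and Pdgfrb rose and Col1a1 and Col1a2 fell, against 49.9% of all genes called. In the libraries labelled KO2 Myc against WT Myc 4 rose and Col1a2 fell, against 35.2%. Between KO2 and KO1 with the Ctrl vector 5 of the 7 were called lower and 0 higher, against 18.3%. The median log2 fold change was -1.88. Between the libraries labelled KO2 Myc and KO1 Myc 5 were called higher and 0 lower, against 18.5%, with a median of 2.79. By the labels, Myc against Ctrl called all 7 lower in KO1, against 36.1%, and 5 higher in KO2, against 38.8%. The summed level of Afp and Cebpa was 4.66 to 5.08 CPM in KO1 Ctrl, 12.5 to 15.1 CPM in KO2 Ctrl and 37.5 to 40.9 CPM in WT Ctrl. It was 36.5 to 43.3 CPM in the libraries labelled WT Myc, near the level of WT Ctrl, 6.83 to 8.17 CPM in those labelled KO1 Myc and 5.08 to 5.96 CPM in those labelled KO2 Myc. The summed level of Cd14 and Cd68 was 43.9 to 52.5 CPM in KO1 Ctrl against 21.3 to 21.5 CPM in WT Ctrl, but 31.7 to 32.1 CPM in the libraries labelled KO2 Myc against 32.1 to 39.0 CPM in those labelled WT Myc. The 5 epithelial markers summed to 5190 to 5203 CPM in KO1 Ctrl and 5209 to 5324 CPM in KO2 Ctrl, and under the Myc vector to 4019 to 4149 CPM (KO1, as labelled) and 3125 to 3271 CPM (KO2, as labelled). The part of other cell types in the Naip result was not tested.

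The genes around the cluster did not show differences of the size of those of the Naip genes. Within 2 Mb of the cluster, 24 other genes were measured in the Myc experiment. Between KO1 and WT with the Ctrl vector their log2 fold changes ranged from -0.77 to 1.31 with a median of -0.03, against -3.54 for Naip2 to -7.03 for Naip1. Between KO2 and KO1 they ranged from -0.78 to 0.51 with the Ctrl vector and from -0.70 to 0.62 in the libraries so labelled with the Myc vector.

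Of 13 measured genes of a list of genes beside the cluster, 5 were called between KO1 and WT with the Ctrl vector, 3 higher and 2 lower, against 52.2% of all genes. Cenph, for a kinetochore protein, rose by 0.85 (SE 0.0914), and Mrps36 rose by 0.81 (SE 0.110). Rad17 fell by 0.53 (edgeR adjusted p = 8.78e-06) and was not called between KO2 and KO1 under either vector. Mccc2, for a subunit of a leucine-degrading carboxylase, fell by 0.77 (SE 0.0878, adjusted p = 1.20e-06), from 22.6 and 22.3 CPM to 14.1 and 13.3 CPM. Between KO2 and KO1 it was higher by 0.51 with the Ctrl vector (adjusted p = 0.000387) and lower by 0.70 with the Myc vector (adjusted p = 7.73e-06). Gtf2h2, for a subunit of the repair and transcription factor TFIIH, had a log2 fold change of -0.25 between KO1 and WT (adjusted p = 0.0148) and did not pass.

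**Figure D4:**
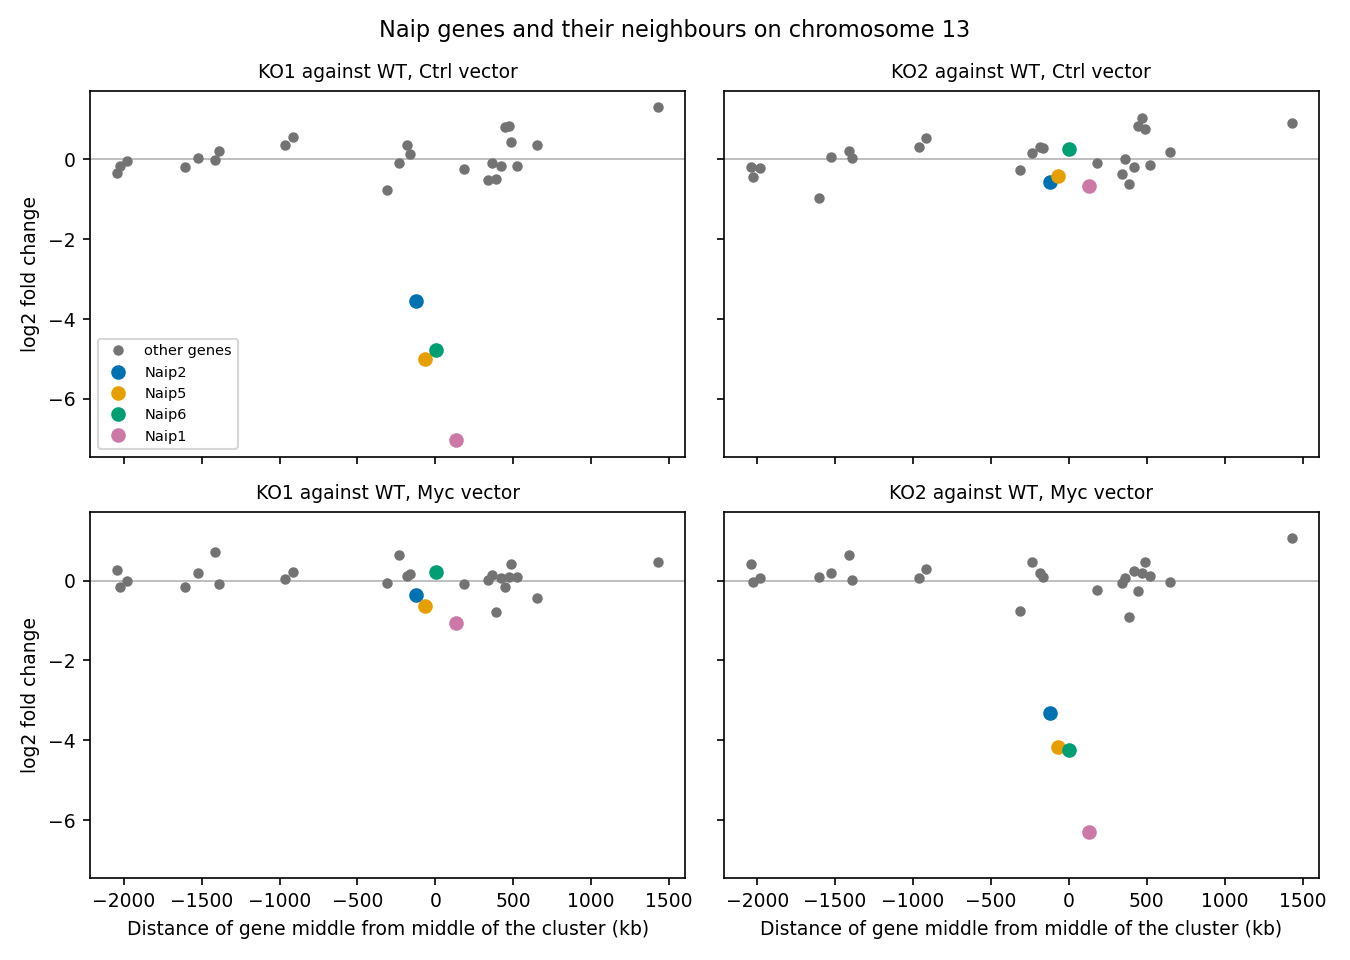
The log2 fold change against WT of each measured gene within 2 Mb of the Naip cluster, by the distance of its middle from the middle of the cluster (kb). Naip genes are coloured and other genes grey. In KO1 with the Ctrl vector and in the libraries labelled KO2 Myc the Naip genes lie from -3.32 to -7.03, below every neighbour.

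Other genes with a profile like that of the Naip sum were sought among 3683 genes with a mean of at least 1 CPM and a range of at least 1 on the log2 scale. Over the 12 libraries of the Myc experiment, the Pearson correlation of log2(CPM + 1) with that of the Naip sum was highest for Tshz2 (0.996), Zfp986 (0.995), Rex2 (0.992), Zfp600 (0.991) and Zfp980 (0.990). Each of these genes encodes a zinc finger protein. Rex2, at chr4:145881315-145887868, and Zfp600, at chr4:146124225-146166156, are neighbours on chromosome 4. The counts of these Zfp genes may share reads, and how alike their sequences are was not tested. Rex2 ranged from 247.1 to 258.7 CPM in WT Ctrl, 4.16 to 5.06 CPM in KO1 Ctrl and 3.10 to 4.07 CPM in the libraries labelled KO2 Myc. Zfp600 ranged from 267.2 to 275.7 CPM in WT Ctrl, 5.01 to 5.52 CPM in KO1 Ctrl and 3.82 to 6.02 CPM in those labelled KO2 Myc.

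The opposite profile was found in Prelp (-0.986), Pde4b (-0.978), Siglecg (-0.970), Ltbp4 (-0.967) and Itgb3 (-0.965), which encode a matrix proteoglycan, a phosphodiesterase, a lectin, a TGF-β binding protein and an integrin chain. Prelp ranged from 16.7 to 18.1 CPM in KO1 Ctrl and from 24.4 to 25.3 CPM in the libraries labelled KO2 Myc, against 0.0678 to 3.45 CPM in the others. The libraries fall into 4 with low and 8 with higher Naip levels, and these coefficients describe mainly that separation. In the HU experiment the 5 most alike genes did not have the profile of the Naip sum, which did not differ between untreated KO and WT past the threshold. Rex2 ranged from 180.2 to 252.0 CPM in KO and from 57.2 to 104.1 CPM in WT libraries, and the KO libraries likewise lay above the WT libraries for Zfp986, Zfp600 and Zfp980. Tshz2 ranged from 0 to 4.18 CPM in KO and from 14.5 to 18.8 CPM in WT libraries.

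The downstream genes of the inflammasome pathway were described from lists of 17 sensors, adaptors and caspases and of 14 effectors and cytokines, of which 16 genes were measured in the Myc experiment. Nlrc4 and Pycard, for the adaptors of the NAIP complex, were not analysed here. The comparison of KO1 with WT under the Ctrl vector called 12 of these 16, 9 higher and 3 lower, and between KO2 and WT 12, 7 higher and 5 lower. The share is above that of all genes called, 52.2% and 49.9%, but the lists were not picked independently of these data. The median log2 fold change of the sensors and caspases was 0.50 in KO1 and 0.38 in KO2, and that of the effectors 0.41 and 0.73, against -0.0036 and -0.011 over all genes. Against WT Myc, these medians were -0.12 (sensors and caspases) and 0.066 (effectors) in the libraries labelled KO1 Myc. In those labelled KO2 Myc they were 0.17 and 0.25. Over all genes they were -0.010 and -0.0038.

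Of the caspases, Casp1 and Casp12 rose in both KO lines with the Ctrl vector and Casp4 rose in KO1. Casp1, the protease that the NAIP complex activates, had 1.36 and 0.851 CPM in WT Ctrl, 4.75 and 5.45 CPM in KO1 and 4.51 and 5.82 CPM in KO2. It rose by 2.15 in KO1 (SE 0.274, adjusted p = 3.76e-06) and by 2.14 in KO2 (SE 0.274, adjusted p = 4.48e-06), and the difference between KO2 and KO1 was -0.01 with an interval of -0.43 to 0.41. Casp12, a caspase of the same gene cluster, rose by 3.15 in KO1 and by 2.44 in KO2, and Casp4, the receptor of intracellular lipopolysaccharide, rose by 0.93 in KO1, a call that was lost without the first WT Ctrl or the first KO1 Ctrl library. With the Myc vector, Casp1 was called in neither line against WT, and it rose by 1.41 with Myc in WT cells (adjusted p = 0.000808), though not past the threshold without the second WT Ctrl library.

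The gasdermins rose in both lines with the Ctrl vector. Gsdmd, the pore former cleaved by caspase-1, had 46.6 and 42.2 CPM in WT Ctrl, 59.7 and 64.8 CPM in KO1 and 93.0 and 77.6 CPM in KO2, with log2 fold changes of 0.43 (adjusted p = 0.00202) and 0.86 (adjusted p = 2.54e-06). Without the second WT Ctrl or the second KO1 Ctrl library the rise in KO1 was no longer called. Gsdme, for another pore former of the family, rose by 1.49 in KO1 and by 1.35 in KO2. With the Myc vector Gsdmd fell by 0.70 in the libraries labelled KO2 Myc against WT Myc, whereas Gsdme rose by 0.62.

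Among the other sensors, Aim2, a receptor of cytosolic DNA, was lower in every comparison of a KO group with WT in the Myc experiment. It had 100.2 and 102.1 CPM in WT Ctrl, 41.2 and 48.3 CPM in KO1 Ctrl and 60.6 and 63.0 CPM in KO2 Ctrl. It fell by 1.23 in KO1 and by 0.79 in KO2 with the Ctrl vector, and by 0.77 in the libraries labelled KO1 Myc and 1.20 in those labelled KO2 Myc, so that the group with the lower Aim2 level was also the group with the lower Naip sum. Nlrp3, a sensor of membrane damage, was thinly covered, with 18 and 24 counts for WT Ctrl against 6 and 11 for KO1 Ctrl and 2 and 3 for KO2 Ctrl. It fell by 1.36 in KO1 (adjusted p = 0.00552) and was called lower in KO2 as well. The fall in KO1 was not called without the second WT Ctrl library or without the first KO1 Ctrl library.

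Of the cytokine genes, Il1rn, for the antagonist of the IL-1 receptor, had 47.8 and 49.6 CPM in WT Ctrl, 6.398 and 7.028 CPM in KO1 Ctrl and 24.6 and 24.9 CPM in KO2 Ctrl. It fell by 2.91 in KO1 (adjusted p = 1.98e-12) and by 1.06 in KO2, and by 2.30 with Myc in WT cells, where the Naip sum fell too. Il18 had 0 counts in every WT library of the Myc experiment, 13 and 19 for KO1 Ctrl and 15 and 14 for KO2 Ctrl. The libraries labelled KO1 Myc had 3 and 5, and those labelled KO2 Myc had 14 and 4. A count of 0 in a library allows up to 3 counts.

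**Figure D5:**
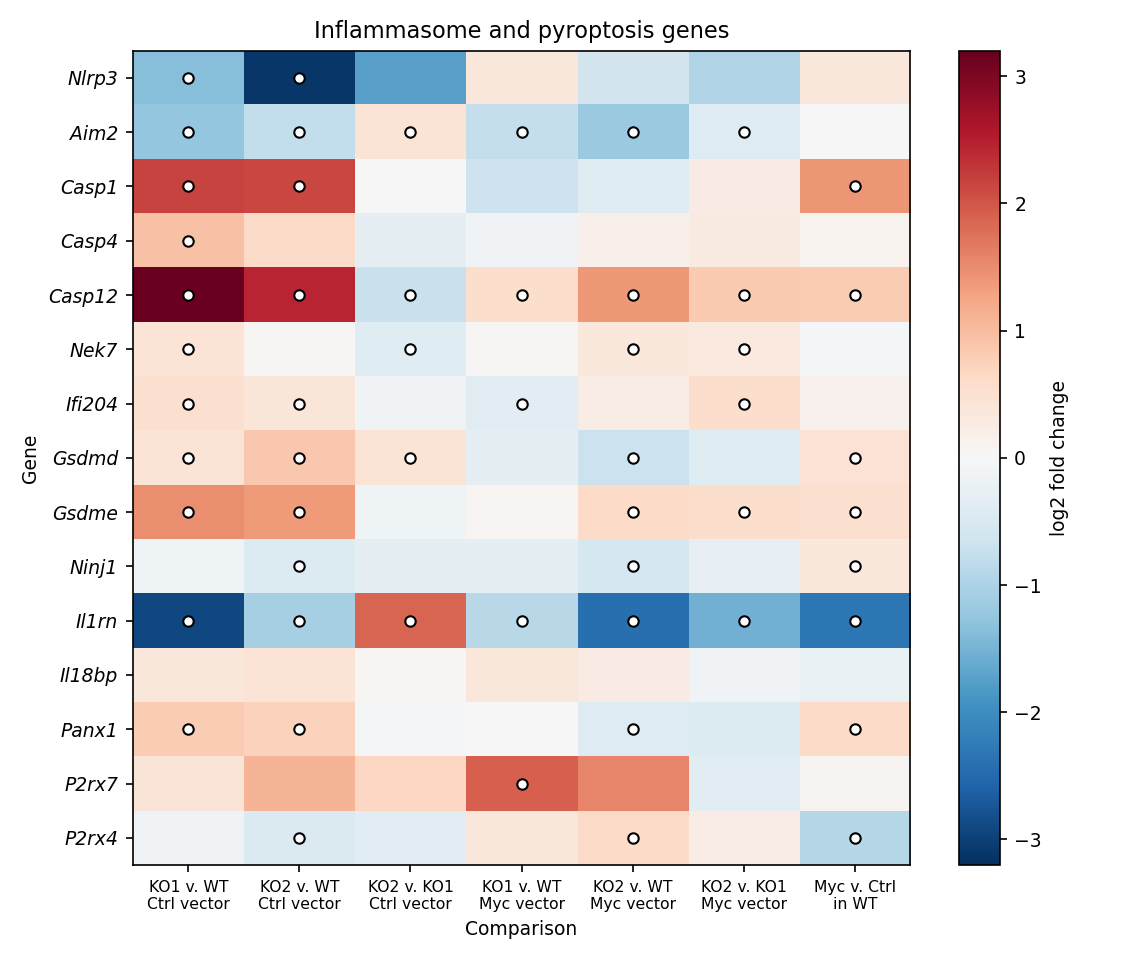
The log2 fold change (colour) of 15 inflammasome and pyroptosis genes in 7 comparisons of the Myc experiment, with a white dot where the gene was called (edgeR adjusted p below 0.01). Il18 is left out because it has 0 counts in WT. Casp1 and Casp12 rose in both KO lines with the Ctrl vector, and Il1rn fell in each comparison with WT.

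Directly between the lines, fewer of these genes were called. With the Ctrl vector 5 of 16 were called between KO2 and KO1, 3 higher (Aim2, Gsdmd and Il1rn) and 2 lower (Nek7 and Casp12), against 18.3% of all genes. Il1rn was higher in KO2 by 1.85 (SE 0.118, adjusted p = 5.61e-09), Aim2 by 0.44 (SE 0.0722, adjusted p = 0.00023) and Gsdmd by 0.43 (SE 0.101, adjusted p = 0.00439). Without either KO1 Ctrl library or without the first KO2 Ctrl library, Gsdmd was not called. Between the libraries labelled KO2 Myc and KO1 Myc 6 of 16 were called, 4 higher and 2 lower (Aim2 and Il1rn), against 18.5% of all genes. In the remaining comparisons, 5 of 16 were called between KO1 Myc and WT Myc against 25.1% of all genes, and 10 between KO2 Myc and WT Myc against 35.2%. Between Myc and Ctrl, 8 were called in WT (3 without the second WT Ctrl library) against 44.3%, 11 in KO1 against 36.1% and 7 in KO2 against 38.8%.

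The other NLR genes include a gene that was low in the same groups as the Naip genes. Nlrp4c, for an NLR protein of oocytes and early embryos, reached 104 and 119 counts with WT Ctrl and 225 and 193 with KO2 Ctrl, against 3 and 1 with KO1 Ctrl. Under the Myc vector it reached 113 and 146 counts (WT) and 90 and 94 (KO1), while both libraries labelled KO2 Myc had 0. Unlike the Naip sum, it was higher in KO2 Ctrl than in WT Ctrl, at means of 13.8 and 7.42 CPM. Nor was it lower in the libraries labelled WT Myc, at a mean of 8.12 CPM. Nlrc5, a regulator of MHC class I genes, had the opposite order, with 65 and 69 counts for KO1 Ctrl and 58 and 52 for the libraries labelled KO2 Myc, but 8 and 5 for WT Ctrl and 1 and 9 for KO2 Ctrl. Of the 6 measured genes of this list 5 were called between KO1 and WT, 2 higher and 3 lower, and 2 between KO2 and KO1, against 52.2% and 18.3% of all genes.

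Among receptors for microbial products, 4 of 8 measured genes were called between KO1 and WT with the Ctrl vector, against 52.2% of all genes, 3 higher and 1 lower. Tlr2, a receptor of lipoproteins, rose by 3.63, Tlr3 by 2.86 and Cd14 by 1.16, while Ly96, the partner of Tlr4, fell by 0.58, a call that was lost without the first WT Ctrl or the first KO1 Ctrl library. With Myc in WT cells Ly96 fell by 0.86. Tlr2 and Tlr3 fell by 1.77 and 1.80 in KO2 against KO1 with the Ctrl vector and rose by 0.91 and 1.44 in the libraries labelled KO2 Myc against KO1 Myc. Of 14 measured genes of IL-1 and IL-18 receptors and their signalling, 11 were called between KO1 and WT, against 52.2% of all genes, 6 higher and 5 lower. Il1rl1, for the receptor of IL-33, rose by 3.42 and Il18rap by 1.39. Between KO2 and KO1 with the Ctrl vector only Irak1, for a kinase below these receptors, was called in this list, at -0.25, and it was not called without any 1 of the 4 libraries compared.

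Of 7 measured genes of the BIR domain family, which share a domain with NAIP, and their antagonists, 3 were called between KO1 and WT with the Ctrl vector, against 52.2% of all genes. All 3 (Sept4, Birc5 and Birc2) were higher, with Birc5 (survivin) at 0.63 and Birc2 at 0.39, which was not called without either WT Ctrl library or without the second KO1 Ctrl library. None of the 7 was called between KO2 and KO1 with the Ctrl vector. With Myc in WT cells, where the Naip sum fell, 6 of the 7 were called, against 44.3% of all genes, 3 higher and 3 lower, among the latter Birc6 at -0.66. Casp6, an apoptotic caspase, rose by 1.01 between KO1 and WT. Of 9 measured interferon regulatory and myeloid factors, 6 were called in that comparison, against 52.2% of all genes, 3 in each direction, with Cebpb at -1.24 and Cebpa at -1.19.

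In the HU experiment the Naip genes were measured in KO and in WT cells, and Trim33 mRNA was lower in KO. The Naip sum was 26.8 and 27.1 CPM in untreated WT, 21.2 and 32.2 CPM in untreated KO, 20.4 and 21.2 CPM in HU-treated WT and 31.7 and 34.3 CPM in HU-treated KO. Between untreated KO and WT cells the log2 fold change was 0.04 (adjusted p = 0.949, with an interval of -0.47 to 0.55), and none of the 3 members was called, against 12% of all genes. A difference of the size seen between KO1 and WT with the Ctrl vector lies outside this interval. The line of these KO cells is not stated, and the part of Trim33 in the Naip levels was not tested.

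HU gave no called difference in the Naip sum. In WT cells the HU libraries lay below the untreated ones without overlap, 1.30-fold lower, and in KO cells they overlapped. The counting interval in WT, 1.007 to 1.671, takes each count as independent. Since 71.9% of the counts from 1 to 50 were even, it may be too narrow. The fitted log2 interval in WT was -0.91 to 0.14. In WT cells the log2 fold change was -0.38 (SE 0.262, adjusted p = 0.430) and in KO cells 0.29 (SE 0.249, adjusted p = 0.628), and no member was called in either, against 9.83% and 6.45% of all genes. The difference between these responses was 0.67 (SE 0.362, adjusted p = 0.932), in a test that called 8 genes of all.

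Among HU-treated cells, both KO libraries lay above both WT libraries. The log2 fold change was 0.71 (SE 0.255), and the edgeR adjusted p of 0.0572 did not pass the threshold of 0.05, while 11.0% of all genes were called. Naip1 was at 11.5 and 16.0 CPM in KO and 6.16 and 9.18 CPM in WT, Naip2 at 18.8 and 10.1 CPM against 10.4 and 8.47 CPM and Naip6 at 1.39 and 8.19 CPM against 3.89 and 3.53 CPM, each on 4 to 54 counts per library. With the replicate block, with the compared groups alone in the fit and with halved counts the adjusted p was 0.0496, 0.0287 and 0.0498, and with DESeq2 it was 0.165, so that the call depends on the fit.

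Of 13 measured inflammasome genes in the HU experiment, 5 were called between untreated KO and WT, against 12% of all genes, 1 higher (Il1rn) and 4 lower (Ifi204, Casp4, Casp12 and Ninj1). The median log2 fold change was -1.10 for the sensors and caspases and -0.24 for the effectors, against -0.00013 over all genes. Casp12 fell by 1.23 (SE 0.322, edgeR adjusted p = 0.00633), whereas it rose in both KO lines of the Myc experiment. Casp4 fell by 1.22, whereas it rose in KO1 with the Ctrl vector. Casp1, at -1.18 (edgeR adjusted p = 0.144), Gsdmd, at -0.24, and Gsdme, at -0.47, were not called. Il1rn had no counts in untreated WT cells and 12 and 4 counts with untreated KO. After HU it had 16 and 12 counts (WT) and 12 and 8 counts (KO). With HU, 2 of 13 were called in WT (Il1rn higher, Nek7 lower) against 9.83% of all genes, and Ninj1 alone in KO against 6.45%. Between KO and WT under HU, Ifi204 alone was called, against 11.0% of all genes, and fell by 1.30. Between untreated KO and WT, the call of Casp4 was lost without any 1 library, that of Casp12 without the first WT or the first KO library, that of Ninj1 without the first KO or the second WT library, and that of Il1rn without either WT or the first KO library. With HU, the call of Nek7 in WT was lost without the second untreated or either HU library, and that of Ninj1 in KO without the first untreated or the second HU library.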

How the data were processed

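Per the labels RNA was extracted with TRIzol and libraries were made with NEBNext Ultra II, whereas the methods of the study name an RNeasy and an NEBNext Ultra kit. The authors aligned reads to mm9 with STAR 2.5.4 and used edgeR 3.26.8. The counting tool and its handling of reads shared by copies are not given in the sources used here. The deposited tables hold whole-number counts per gene, used as deposited although their name calls them normalized. Of the counts from 1 to 50, 71.9% were even in the HU experiment against 48.4% in the Myc experiment, so that a fit on halved counts was added as an alternative. The authors' own comparisons, fold changes and p-values, were not used.

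Counts were fitted per experiment with edgeR 4.0.16 (R 4.3.3, quasi-likelihood test, TMM, all groups in 1 model, limma 3.58.1) on 13107 and 11210 genes, with Benjamini-Hochberg adjustment over all genes. Genes were called at an adjusted p below 0.01 in the Myc and 0.05 in the HU experiment. The Naip sum replaced its members as 1 feature. CPM were scaled to the plain library total. Fold intervals are exact conditional intervals on summed counts and shares have Clopper-Pearson intervals, at 95%. The fits were tested on simulated data. The members and lists were chosen with earlier results of these data known. The rule for named genes took all members, every measured gene of the inflammasome lists, from each other list up to 4 called genes with the largest absolute change and a mean of at least 1 CPM, the genes directly beside the cluster, the 5 genes most like and most unlike the Naip sum, and Trim33 and Myc as checks of the labels. Alternatives were DESeq2 1.42.0, no TMM, a 5 CPM filter, compared groups alone, a fold threshold, a replicate block and leaving out each library. A result on 1 further gene is not reported here.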

Additional observations from a re-analysis of the deposited data

Results flagged for a closer look

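The Naip genes were higher with the Myc vector than with the Ctrl vector in the libraries labelled KO1 and lower in those labelled KO2, in every library. The log2 fold change of the sum was 3.005 in KO1 and -4.642 in KO2. It was 5.036 and -6.56 for Naip1, 2.315 and -3.625 for Naip2, 3.081 and -5.03 for Naip5 and 3.828 and -5.71 for Naip6. The difference between the lines was not tested, since these libraries chose the genes, and Trim33 mRNA in the libraries with the Myc vector goes against their labels.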

How the results depend on the processing

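With 2 libraries per group, single genes are uncertain, and in the HU experiment no library had more than 98 Naip counts. For the Naip sum, KO2 against KO1 with the Ctrl vector was 4.05 with DESeq2, 4.07 without TMM, 4.05 with the 5 CPM filter and 4.05 with the Ctrl vector libraries alone, an alternative chosen after seeing the data.
Without TMM it was -4.45 for KO1 and -0.38 for KO2 against WT with the Ctrl vector, and -0.0039 for untreated KO against WT (adjusted p = 0.995). Leaving out a library gave -4.55 to -4.46, -0.51 to -0.42 and -0.30 to 0.28 for these, -3.78 to -3.46 for KO2 against KO1 and -0.72 to -0.32 for KO1 against WT with the Myc vector, and 2.96 to 3.08 in KO1 and -4.82 to -4.50 in KO2 for Myc against Ctrl. KO against WT under HU passed at 0.71 with the replicate block (edgeR adjusted p = 0.0496), 0.71 with halved counts and 0.72 with the compared groups alone, while leaving out a library gave adjusted p from 0.145 to 0.255. Deviations of the first libraries from their group means correlated at -0.258 to 0.339 between groups. Whether replicate numbers pair the samples is not settled by these values. The replicate block changed counts of called genes by 1.01 to 1.14 times.

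Of the inflammasome genes, a log2 fold change of at least 1 was met by 1, 7 and 6 called genes with the Ctrl vector (KO2 against KO1, KO1 against WT, KO2 against WT), 1, 1 and 4 with the Myc vector, 2, 5 and 4 for Myc against Ctrl in WT, KO1 and KO2, and 1 and 0 for HU in WT and KO. KO1 against WT with the Myc vector called 2 with the compared groups alone and 2 to 5 without a library, Myc against Ctrl in WT 3 to 8 without a library and in KO2 4 to 6, and in KO1 6 with the 5 CPM filter. HU in WT called 0 with DESeq2, 1 without TMM, 1 with the 5 CPM filter, 1 with halved counts, 1 with the compared groups alone and 1 to 2 without a library. HU in KO called 2 with the replicate block, 2 with the compared groups alone and 0 to 2 without a library. Untreated KO against WT called 3 with DESeq2, 3 with the compared groups alone and 2 to 4 without a library, and KO against WT under HU called 2 with the replicate block and 2 with the compared groups alone. Over all genes DESeq2 called 727, 456, 751 and 736 in the 4 HU experiment comparisons, against 1102, 723, 1349 and 1233 with edgeR. Of the 5 genes most like the Naip sum, 0 were among the top 5 by Spearman's rho and 2 by group means.

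Leaving out a library turned the sign of single Naip genes that had not passed. With HU in WT, Naip2 ranged from -0.48 to 0.15 and Naip6 from -0.31 to 0.073. With HU in KO, Naip6 ranged from -1.93 to 0.58 and Naip1 from -0.20 to 0.62. For untreated KO against WT, Naip2 ranged from -0.68 to 0.15 and Naip1 from -0.44 to 0.39. For KO against WT under HU, Naip6 ranged from -1.34 to 1.18. The cause was not tested.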
